A study of Homo sapiens with 18 samples.

Results

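The response of chromatin to cetuximab was compared between 2 human head and neck squamous cell carcinoma (HNSCC) lines, SCC25 and SCC6. The members were the 12 SCC25 and SCC6 libraries among the 17 libraries of the region table, chosen by line and treatment alone, with 3 libraries in each of 4 groups. The assay was ATAC-seq, which reads open chromatin from the places where the transposase Tn5 can insert sequencing adapters. Both lines grew in the same serum-supplemented medium and received either cetuximab at 100 nM daily or PBS for 5 days, so the 4 groups were SCC6 with cetuximab, SCC6 with PBS, SCC25 with cetuximab and SCC25 with PBS. Each line stands for a single tumour culture, and nothing in the labels says that the numbered libraries came from separate cultures, so the p-values below measure the spread between these libraries only. The measure was the interaction of line and treatment, the log2 change after cetuximab in SCC25 minus that in SCC6. A positive difference means a SCC25 change above the SCC6 change, and it can come from a gain in SCC25, a loss in SCC6 or both. Of 115087 regions in the table, 86315 passed a filter that left out the 25% with the lowest mean signal, and these were tested.

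Cetuximab is an antibody that binds the epidermal growth factor receptor (EGFR), blocks its ligands and lowers signalling through RAS, ERK and the other arms below the receptor. ERK signalling ends in part at AP-1, dimers of FOS and JUN proteins that bind enhancers, and AP-1 shares many epithelial enhancers with TEAD factors, the DNA-binding partners of YAP. ATAC-seq reads the opening of promoters, which lie at start sites of genes and are rich in GC, and of enhancers, which often lie far from them and differ more between cell types.

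The regions that moved most clearly in opposite ways were mostly intronic or intergenic, and the central 200 bases of 8 of them are shown because the largest differences between the lines rest on these elements. All are on the plus strand of GRCh37. Capitals mark an AP-1 motif (TGACTCA or TGAGTCA), a TEAD motif (GGAATG) or a RUNX motif (TGTGGTT), each on either strand, and the first 4 sequences had a higher change in SCC25 and the last 4 a lower one.
HIVEP3 intron (chr1:41980928-41981127): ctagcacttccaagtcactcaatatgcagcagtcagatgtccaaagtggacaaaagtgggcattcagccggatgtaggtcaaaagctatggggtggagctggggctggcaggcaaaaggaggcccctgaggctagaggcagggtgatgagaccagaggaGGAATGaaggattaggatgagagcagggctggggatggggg
Near TMEM247 (chr2:46636259-46636458): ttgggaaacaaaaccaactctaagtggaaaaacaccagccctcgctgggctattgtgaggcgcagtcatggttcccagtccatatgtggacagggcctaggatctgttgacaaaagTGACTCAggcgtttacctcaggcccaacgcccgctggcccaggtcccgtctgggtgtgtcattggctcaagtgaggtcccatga
LPIN1 intron (chr2:11820603-11820802): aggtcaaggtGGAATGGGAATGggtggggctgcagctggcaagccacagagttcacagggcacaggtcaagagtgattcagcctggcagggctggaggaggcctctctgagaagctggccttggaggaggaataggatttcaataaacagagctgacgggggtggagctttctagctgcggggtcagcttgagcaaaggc
RHOF intron (chr12:122229894-122230093): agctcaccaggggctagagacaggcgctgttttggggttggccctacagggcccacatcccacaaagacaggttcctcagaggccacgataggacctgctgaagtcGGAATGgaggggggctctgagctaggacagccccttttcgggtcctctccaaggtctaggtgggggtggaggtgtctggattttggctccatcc
Near KIAA0040 (chr1:175191269-175191468): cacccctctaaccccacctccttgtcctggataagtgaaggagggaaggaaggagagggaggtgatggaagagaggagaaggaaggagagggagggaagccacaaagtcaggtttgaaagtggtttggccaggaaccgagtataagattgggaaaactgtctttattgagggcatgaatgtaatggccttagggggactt
TRPC6 intron (chr11:101592034-101592233): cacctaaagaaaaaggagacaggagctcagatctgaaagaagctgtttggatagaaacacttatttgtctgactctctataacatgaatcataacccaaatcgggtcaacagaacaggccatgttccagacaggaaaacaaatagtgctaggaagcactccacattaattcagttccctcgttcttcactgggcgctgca
ARMH4 intron (chr14:58544941-58545140): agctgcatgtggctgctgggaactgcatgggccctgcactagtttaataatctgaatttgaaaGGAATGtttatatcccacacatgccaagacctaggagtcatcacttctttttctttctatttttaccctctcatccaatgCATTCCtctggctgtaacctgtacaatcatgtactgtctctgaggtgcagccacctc
Near MACC1 (chr7:20281181-20281380): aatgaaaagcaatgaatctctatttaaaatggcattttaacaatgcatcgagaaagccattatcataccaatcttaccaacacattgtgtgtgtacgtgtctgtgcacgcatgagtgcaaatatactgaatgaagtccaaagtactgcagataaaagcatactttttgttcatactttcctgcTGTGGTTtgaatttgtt
A TEAD motif was present in the sequences of HIVEP3, LPIN1, RHOF and ARMH4, an AP-1 motif in that near TMEM247 and a RUNX motif in that near MACC1. The sequences near KIAA0040 and in TRPC6 held no match to these 3 motifs in these 200 bases.

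The 12 libraries held 2513828 to 15017130 reads in regions. The median region had 11 to 68 reads, and 7.14% to 23.9% of regions stood at the floor of 1 read. The SCC25 cetuximab libraries were shallow (3214656, 7385401 and 2513828 reads) beside those of SCC25 PBS (13408698, 6533269 and 5509462). Of 10 promoters of squamous epithelial genes, 4 had a peak in all 3 SCC6 PBS libraries and 6 in all 3 SCC25 PBS libraries. ITGB4, CDH1 and EPCAM had one in every PBS library, whereas the promoter of the basal keratin gene KRT14 had a mean signal of 1.66 and no peak in SCC6 PBS against 35.8 and a peak in 3 libraries of SCC25 PBS. Among 6 leukocyte genes PTPRC, CD3E and SPI1 had no promoter region in the table, CD14 had a peak in 1 SCC25 PBS library and ITGAM in 3, and neither had one in SCC6 PBS. Among 8 fibroblast and endothelial genes LUM, PDGFRB, PECAM1 and VWF had no promoter region. COL1A1 had a peak in every PBS library of both lines, and COL1A2 in 3 and PDGFRA in 2 SCC25 PBS libraries. DCN had a peak in 3 SCC6 PBS libraries, but its mean signal there was only 1.35 and its region fell below the filter.

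The lines differed in their response at 8069 of 86315 regions (limma, Benjamini-Hochberg adjusted p under 0.05). The SCC25 change was above the SCC6 change at 2226 regions (2.58% of those tested) and below it at 5843 (6.77%). Most of these calls came with a change in SCC6. On its own, SCC6 gained signal at 10606 regions (12.3%) and lost it at 8128 (9.42%), whereas SCC25 gained it at 109 (0.126%) and lost it at 64 (0.0741%). Each called region was placed by the unadjusted p of either line at 0.05. By this rule 932 regions were opposite, 6531 moved in SCC6 only, 330 moved in SCC25 only, 276 moved the same way in both lines, and 0 fell in none of these classes. All 276 of the last class had the larger change in SCC6 (153 higher and 123 lower in both lines). A p above 0.05 in a line is no proof that it did not change there. Gains and losses in the names of classes below refer to that unadjusted p. In the SCC6 only class the 95% interval of the SCC25 change reached a median of 0.62 to either side. In 8.61% of these regions it reached at least 50% of the SCC6 change in the same direction. The fit shares its estimate of the spread between both lines, so this interval is not that of the SCC25 libraries alone.

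**Figure D1:**
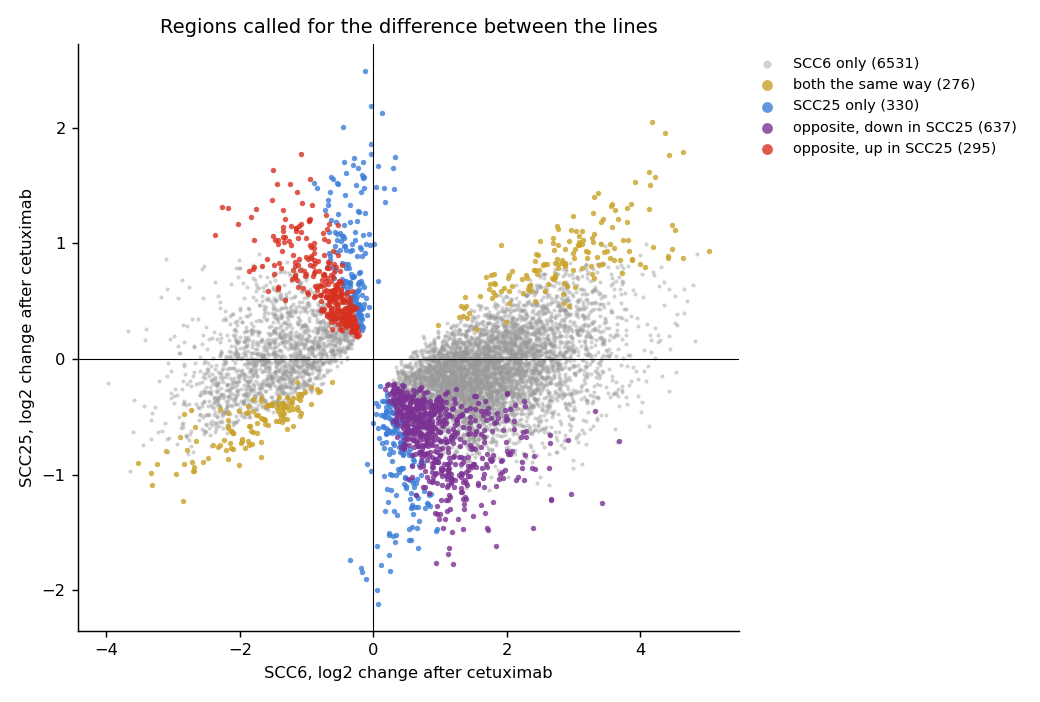
The log2 change after cetuximab in SCC6 (x axis) and SCC25 (y axis) of the 8069 regions called for the difference between the lines, coloured by class, with 1 point for each region. The 637 regions up in SCC6 and down in SCC25 lie in the lower right quadrant, the 295 down in SCC6 and up in SCC25 in the upper left, and the SCC6 axis carries most of the spread.

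The balance of directions depended on how the libraries were scaled. With the deposited scaling 27.6% of the calls had the SCC25 change above, against 46.0% after quantile normalization (4048 above and 4743 below), 60.3% after centring each library on its median (6160 and 4051) and 5.65% after scaling to the 1973 regions without a peak in the 12 libraries (900 and 15038), an alternative added after the data were seen. The median difference of all tested regions was -0.031 with the deposited scaling, and these settings moved it to 0.056, 0.23 and -0.43. With the trend on GC content removed the calls numbered 2650 and 4357, and on recovered reads edgeR made 5123 and 6394. The 4 scalings named below are centring, quantile normalization, removal of the GC trend and scaling to regions without a peak.

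Regions with lower signal in SCC6 and higher signal in SCC25 after cetuximab, each at an unadjusted p under 0.05, numbered 295, with a median log2 change of -0.63 in SCC6 and 0.56 in SCC25. Cetuximab and PBS libraries did not overlap in either line at 191 of them, against 6794 of all 86315 tested regions, and the rule for the class used the same libraries. After adjustment over all regions 163 of the 295 were called in SCC6, 3 in SCC25 and 1 in both, so for nearly all of them the gain in SCC25 rests on the unadjusted p. The region called in both lay in an intron of HIVEP3, which encodes a zinc finger transcription factor (chr1:41980722-41981332, 30.4 kb from the start of EDN2, the nearest protein-coding start site). Its signal was 413, 444 and 519 in the SCC6 PBS libraries and 179.8, 177 and 184 after cetuximab. In SCC25 it was 16.2, 13.7 and 7.63 with PBS and 25.3, 27.4 and 23.0 with cetuximab. The groups did not overlap in either line, and the region was much more open in SCC6 throughout. It fell by 1.33 in SCC6 (95% interval -1.77 to -0.90, adjusted p = 3.81e-05) and rose by 1.01 in SCC25 (95% interval 0.58 to 1.44, adjusted p = 0.0408), a difference of 2.35 (95% interval 1.74 to 2.96, adjusted p = 1.37e-05). It had a peak in all 6 SCC6 libraries and in 0 of the SCC25 libraries.

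An intergenic region 70.0 kb from the start of TMEM247 (chr2:46636019-46636698) had a signal of 159, 154 and 154 in SCC6 PBS and 72.7, 70.6 and 72.4 after cetuximab. In SCC25 the values were 42.6, 32.5 and 27.1 with PBS and 49.2, 74.2 and 53.1 with cetuximab. The lines stood far apart with PBS and overlapped after cetuximab. SCC6 fell by 1.11 (adjusted p = 0.000172), the SCC25 change was 0.77 (95% interval 0.37 to 1.18, adjusted p = 0.0939), and the difference was 1.88 (95% interval 1.30 to 2.45, adjusted p = 9.47e-05). In an intron of RHOF, which encodes a small GTPase (chr12:122229723-122230264, 1.00 kb from its start), the signal was 109.9, 133 and 105 in SCC6 PBS and 46.5, 24.1 and 30.7 after cetuximab. In SCC25 it was 19.97, 13.0 and 11.9 with PBS and 23.9, 33.2 and 21.3 with cetuximab. After cetuximab the ranges of the lines overlapped, and 0 of the 6 SCC25 libraries had a peak there. SCC6 fell by 1.80 (adjusted p = 4.46e-05), the SCC25 change was 0.78 (95% interval 0.19 to 1.36, adjusted p = 0.243), and the difference was 2.57 (adjusted p = 0.000170).

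The region in an intron of LPIN1, the gene of a phosphatidic acid phosphatase of lipid synthesis (chr2:11820590-11820814), showed the limit of depth. Its signal was 76.1, 58.9 and 72.9 in SCC6 PBS and 13.1, 11.1 and 20.5 after cetuximab. In SCC25 it was 0.377, 0.721 and 0.848 with PBS, which is the floor of 1 read in each of those libraries, and 7.03, 1.95 and 1.77 with cetuximab, which stands for 5, 3 and 1 reads. SCC6 fell by 2.177 (adjusted p = 0.000129), whereas the SCC25 libraries differed by a few reads only and no fold is given for them. The difference between the lines was called in 23 of 23 settings that could test it, and the filter of 10 reads in each line left the region out. SCC25 with PBS stood at the floor and could not fall, so a loss in SCC6 alone gives a positive difference. The count of settings therefore says nothing about a gain in SCC25. The promoter region of RNF139, the gene of a ubiquitin ligase of the endoplasmic reticulum (chr8:125486403-125487784), lay at the opposite end of the range. Its signal was 1067, 1108 and 1146 in SCC6 PBS and 821, 883 and 845 after cetuximab, against 407, 402 and 319.8 with PBS and 488, 471 and 448 with cetuximab in SCC25. Where sets of 3 values follow each other below, PBS comes first and cetuximab second. The shifts were small beside those above and none of the groups overlapped within a line. SCC6 fell by 0.38 (adjusted p = 0.00111), the SCC25 change was 0.32 (adjusted p = 0.0875), and the difference was 0.71 (95% interval 0.47 to 0.94, adjusted p = 0.000251). Scaled to regions without a peak, this difference was 0.29 with an adjusted p of 0.0609.

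Regions with the reverse pattern, higher in SCC6 and lower in SCC25, numbered 637, with a median change of 0.86 in SCC6 and -0.59 in SCC25. The libraries did not overlap in either line at 448 of them, beside the 6794 of 86315 given above, and adjusted calls numbered 444 in SCC6, 6 in SCC25 and 5 in both. The region with the smallest p lay 28.9 kb from the start of KIAA0040 (chr1:175190942-175191795). Its signal was 74.9, 75.6 and 82.7 in SCC6 PBS and 306, 321 and 312 after cetuximab. In SCC25 it was 906, 917 and 859 with PBS and 678, 821 and 698 with cetuximab. The treated SCC6 libraries lay far above those with PBS and still below every SCC25 library. SCC6 rose by 2.00 (95% interval 1.81 to 2.19, adjusted p = 4.81e-13), the SCC25 change was -0.29 (95% interval -0.48 to -0.10, adjusted p = 0.164), and the difference was -2.29 (95% interval -2.56 to -2.02, adjusted p = 6.38e-11).

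An intron of TRPC6, the gene of a calcium-permeable cation channel, held the next of these regions (chr11:101591869-101592398, 137 kb from its start). Its signal was 277, 239.5 and 213 in SCC6 PBS and 767, 764 and 729 after cetuximab. In SCC25 it was 218, 182 and 184 with PBS and 165, 148 and 108 with cetuximab. With PBS the lines were close, and after cetuximab they were far apart. SCC6 rose by 1.64 (adjusted p = 2.83e-09), the SCC25 change was -0.49 (95% interval -0.75 to -0.22, adjusted p = 0.108), and the difference was -2.12 (95% interval -2.50 to -1.74, adjusted p = 1.18e-07). Both this region and that near KIAA0040 were opposite in each of 4 scalings.

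In an intron of ARMH4 (chr14:58544815-58545265) the signal was 41.1, 62.2 and 63.1 in SCC6 PBS and 236, 214 and 214 after cetuximab, against 255, 256 and 244 and 204, 211 and 198 in SCC25. Near MACC1, a gene known as a regulator of the MET receptor (chr7:20281014-20281547, 24.0 kb from its start), it was 25.4, 31.4 and 33.7 and 144, 135 and 165 in SCC6, against 108, 128 and 127 and 95.6, 91.8 and 92.1 in SCC25. In an intron of HECW1, the gene of a ubiquitin ligase (chr7:43561967-43562445), it was 18.1, 21.4 and 14.1 and 99.0, 86.3 and 83.0 in SCC6, against 185, 176 and 161 and 111, 149 and 136 in SCC25. After cetuximab SCC6 lay above the treated SCC25 libraries and below the SCC25 PBS libraries in ARMH4. It lay above every SCC25 library of either treatment near MACC1 and below every one in HECW1. The differences were -2.30, -2.63 and -2.68 (adjusted p = 1.28e-07, 1.82e-07 and 5.09e-07). The SCC25 changes were -0.30, -0.37 and -0.40, with adjusted p of 0.379, 0.354 and 0.352, and all 3 regions were opposite in 1 of 4 scalings only.

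**Figure D2:**
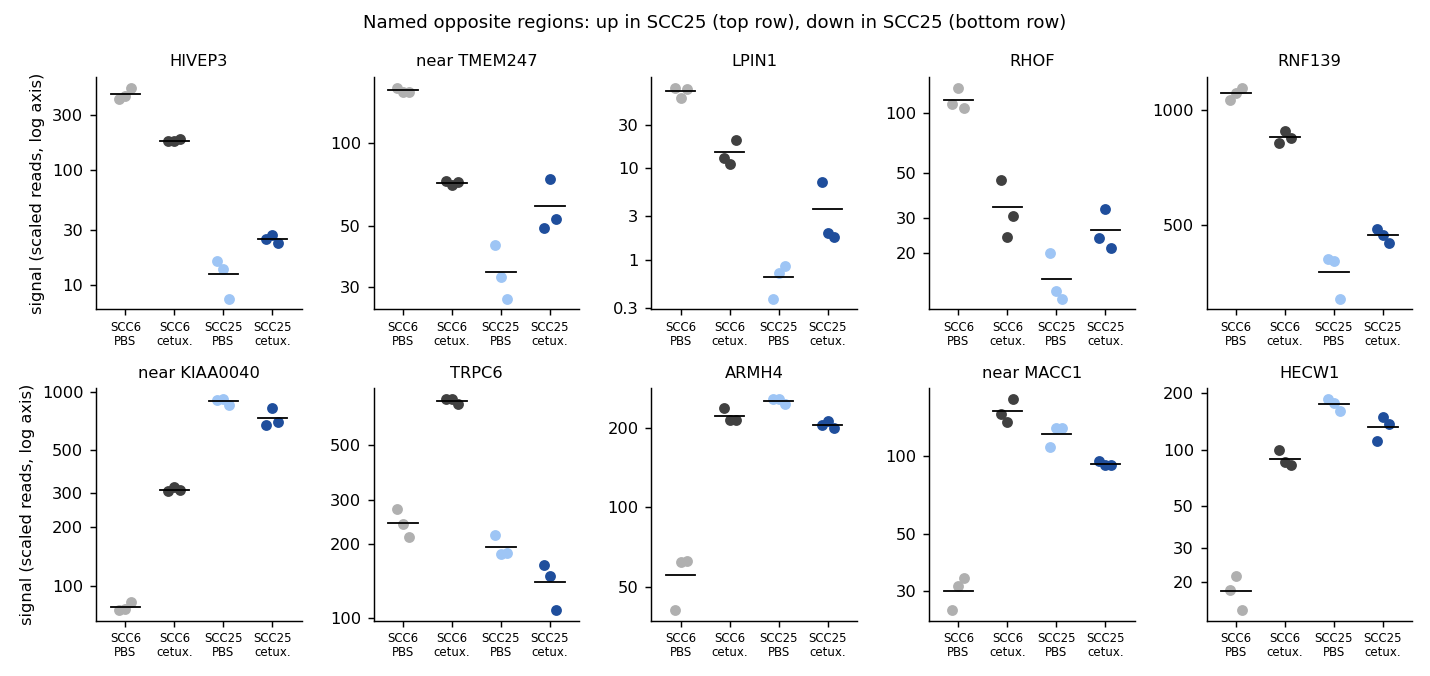
Signal of each library (points, 3 in each group, log axis) and group means (bars) at the 10 named opposite regions in SCC6 and SCC25 with PBS or cetuximab. In the top row the SCC6 signal is lower and the SCC25 signal higher after cetuximab, and in the bottom row the reverse. The larger step is in SCC6 at each region except that in LPIN1, where the SCC25 libraries held a few reads only.

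The opposite class itself was sensitive to scaling. Of the 295 regions up in SCC25, 46 were opposite in all 4 scalings and 120 kept the call for the difference in all 4. Of the 637 regions down in SCC25, 200 were opposite in all 4 scalings and 425 kept that call. The 46 regions comprised 7 promoters, 32.6% with an AP-1 motif and 28.3% with a TEAD motif. The 200 regions comprised 4 promoters, 39% with an AP-1 motif, 38% with a TEAD motif and 20% with a RUNX motif. Over all tested regions, promoters included, the shares of AP-1, TEAD and RUNX motifs were 27.3%, 23.1% and 9.49%. When 1 library was left out in turn, 39 of the 295 and 101 of the 637 stayed opposite in all 12 fits. Without SCC25 PBS replicate 2 the counts of opposite regions were 176 and 418, and without SCC25 PBS replicate 3 they were 189 and 471.

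Opposite regions were grouped by the nearest protein-coding gene. KALRN, which encodes a guanine nucleotide exchange factor, had 3 regions up in SCC25 among 14 tested regions nearest to it, with changes of -0.94 to -0.63 in SCC6 and 0.41 to 0.89 in SCC25, and 1 further region was called below. EXT1, which encodes an enzyme of heparan sulfate synthesis, had 4 regions down in SCC25 among 58, with changes of 0.39 to 1.69 in SCC6 and -0.71 to -0.49 in SCC25, and all 11 calls at this gene were below. MCTP2 (3 of 72), RAPGEF2 (3 of 54) and TLE1 (3 of 62), the last the gene of a transcriptional corepressor, followed. At TLE1 2 further regions were called above and 8 in all below. Genes with many tested regions have more chances of such a count, and no test was made of it.

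SCC6 only regions were mostly gains. They comprised 4885 regions higher after cetuximab (median change 1.72 in SCC6 and -0.11 in SCC25) and 1646 lower (-1.42 and 0.020). The gained regions had a median signal of 11.9 in SCC6 PBS and 45.8 after cetuximab, against 50.4 and 46.8 in SCC25, so treated SCC6 came to the level that SCC25 held with either treatment. On average 0.642 of 3 SCC6 PBS libraries and 2.25 of 3 treated ones had a peak there, against 2.21 and 1.36 in SCC25, where the treated libraries were the shallow ones. The lost regions went from 55.7 to 19.0 in SCC6 and stood at 53.9 and 53.6 in SCC25. The SCC6 PBS libraries enter both the level and the change that placed a region here, so these levels are a description.

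The gained region with the smallest p lay 286 kb from the start of ST3GAL1, which encodes a sialyltransferase (chr8:134870304-134870930). Its signal was 15.7, 10.0 and 13.1 in SCC6 PBS and 179.8, 194 and 169 after cetuximab, and in SCC25 it was 382, 319 and 371 and 260.1, 307 and 321. SCC6 rose by 3.73 (adjusted p = 9.87e-14), the SCC25 change was -0.27 (95% interval -0.59 to 0.047), and the difference was -4.00 (95% interval -4.45 to -3.55, adjusted p = 6.35e-11). The region thus opened in every treated SCC6 library and stayed below each SCC25 library. A region in an intron of the dynein gene DNAH5 went from 48.3, 36.8 and 26.1 to 359.6, 369 and 372 in SCC6, and stood at 243, 206 and 241 and 231, 255 and 219.6 in SCC25 (difference -3.28, adjusted p = 1.98e-09).

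Among the losses, a region 144 kb from TMEM106B went from 394, 400.1 and 413 to 85.9, 87.3 and 99.2 in SCC6, and stood at 129, 99.5 and 107 and 95.6, 85.3 and 99.2 in SCC25 (difference 1.89, adjusted p = 9.41e-07). A region in an intron of SAMD12-AS1 went from 226, 193 and 207 to 37.4, 21.4 and 28.4 in SCC6, and stood at 118, 136 and 101 and 141, 119.8 and 85.0 in SCC25 (difference 2.78, adjusted p = 9.41e-07). A region 240.3 kb from FSIP2 had a difference of 1.75 (adjusted p = 1.36e-05), and there the SCC25 change was -0.31 (95% interval -0.63 to 0.011). All 5 of these named regions were called for the difference in each of 24 settings.

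SCC25 only regions were few, 162 higher and 168 lower after cetuximab, and 20 and 10 of them passed the adjusted test in SCC25. In an intron of SLC16A7, the gene of a monocarboxylate transporter (chr12:60130615-60130970), the signal was 12.8, 5.77 and 13.6 in SCC25 PBS and 43.6, 28.0 and 33.6 after cetuximab, and in SCC6 it was 90.6, 68.9 and 81.6 and 61.6, 58.5 and 73.4. SCC25 rose by 1.68 (adjusted p = 0.0164), the SCC6 change was -0.31 (95% interval -0.90 to 0.28), and the difference was 1.99 (adjusted p = 0.00202). The region stayed less open in SCC25 than in SCC6 after the gain and had a peak in 0 of the 6 SCC25 libraries. A region 478 kb from BUD13 went from 15.1, 21.6 and 16.97 to 46.4, 52.1 and 54.9 in SCC25 (rise of 1.48, adjusted p = 0.00415, difference 1.31, adjusted p = 0.00332). A region in an intron of MTA3, the gene of a chromatin remodelling subunit, went from 6.03, 5.77 and 3.39 to 15.5, 22.1 and 19.5 (rise of 1.74, adjusted p = 0.0201, difference 2.04, adjusted p = 0.00339). In SCC25 the region near BUD13 had a peak in 1 library and that in MTA3 in 0, whereas all 6 SCC6 libraries had a peak at each of these 3 regions.

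Losses confined by this rule to SCC25 included a region 47.1 kb from BIRC3, which encodes an inhibitor of apoptosis (chr11:102140629-102141118). Its signal went from 188, 184 and 176 to 121, 132 and 109.8 in SCC25, and from 1157, 1025 and 1057 to 1283, 1325 and 1086 in SCC6. The region was far more open in SCC6, where cetuximab and PBS libraries overlapped. SCC25 fell by 0.59 (adjusted p = 0.0135), the SCC6 change was 0.19 (95% interval -0.0053 to 0.38), and the difference was -0.78 (adjusted p = 0.000350). An intronic region of CHPT1, a gene of phosphatidylcholine synthesis, went from 52.0, 55.5 and 46.7 to 11.2, 22.8 and 15.9 in SCC25 (fell by 1.62, adjusted p = 0.0164) with a SCC6 change of 0.053 (95% interval -0.51 to 0.62) and a difference of -1.67 (adjusted p = 0.00626). A region 16.98 kb from ZP4 fell by 0.49 in SCC25 (adjusted p = 0.0420, difference -0.64, adjusted p = 0.00483). The call for the difference was lost on thinned reads at BUD13, CHPT1 and ZP4, with SCC1 in the fit at CHPT1, and after centring or removal of the GC trend at ZP4. In all 4 scalings 11 of the 330 SCC25 only regions and 3430 of the 6531 SCC6 only regions stayed in their class.

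The classes differed in where they lay. Promoters, taken as regions within 1 kb of a protein-coding start site, made up 45.8% of the opposite regions up in SCC25 and 44.4% of the SCC25 only gains, against 16.6% of all tested regions. They made up 4.08% of the opposite regions down in SCC25, 5.95% of the SCC25 only losses and 2.99% of the SCC6 only gains. The median distance to a start site was 3.33 kb for opposite regions up in SCC25, 45.2 kb for those down in SCC25 and 30.8 kb over all tested regions. Median GC content was 61.3%, 44.1% and 47.0% in the same sets. By chromosome, calls above ran from 1.06% of tested regions on chromosome X to 4.27% on chromosome 22, and calls below from 2.55% on chromosome 19 to 8.50% on chromosome 7.

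SCC1, whose libraries played no part in choosing these classes, gave a further reading. Of the opposite regions up in SCC25 70.2% had a positive SCC1 change, against 36.4% of those down in SCC25 and 48.6% of all tested regions. Promoters, which are frequent in the first class and rare in the second, had a positive SCC1 change at 66.1%, and the part of promoters in this contrast was not tested. For SCC25 only gains and losses the shares were 69.1% and 26.2%. In both opposite classes the sign of the SCC1 change was therefore that of SCC25 more often than that of SCC6. In the SCC6 only class 30.1% of losses and 51.7% of gains had a positive SCC1 change. No test was made of these shares, and regions are not replicates.

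GC content moved with the measured change of both lines. Across tested regions the Spearman correlation of GC content with the change was -0.282 in SCC6 and -0.081 in SCC25, and 0.174 with the difference. The signal of 1 read was 1.41, 0.651 and 1.77 in the SCC25 cetuximab libraries and 0.377, 0.721 and 0.848 with PBS. A region at 1 read in every SCC25 library thus has a positive change without a change in reads. The part of such regions in these correlations was not tested. Among the 8632 regions richest in GC the median change was -0.15 in SCC6 and 0.073 in SCC25, with 347 calls above and 27 below. Among 8630 regions with a median GC content of 40.5% it was 0.20 and -0.099, with 167 calls above and 979 below. When the trend on GC content was removed from each library, 168 of the 295 opposite regions up in SCC25 and 282 of the 637 down in SCC25 stayed in their class.

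**Figure D3:**
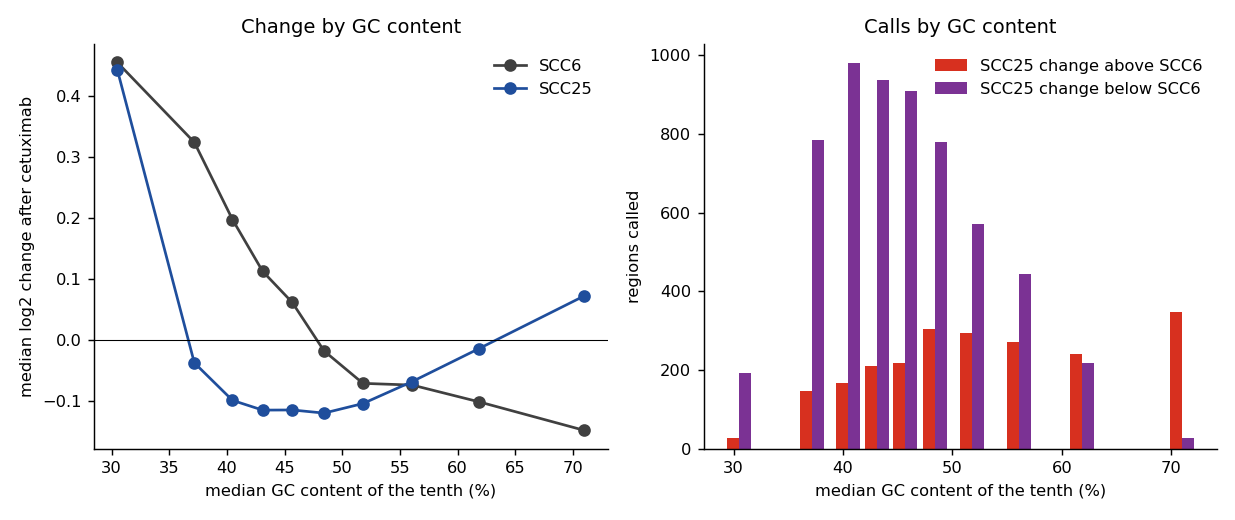
Median log2 change after cetuximab in SCC6 and SCC25 (left) and number of regions called for the difference in each direction (right), by 10 bins of GC content of the 86315 tested regions. The SCC6 curve falls from 0.46 to -0.15, the SCC25 curve is at 0.44 in the first bin, below 0 in the middle ones and at 0.073 in the last, and calls above outnumber calls below in the last 2 bins only. The 0.44 is not read as a response, because 1 read in every SCC25 library gives a positive change by the scaling alone.

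Motifs were searched in the central 300 bases of each region on both strands, and matches of different motifs may overlap. The motifs were AP-1 (TGACTCA or TGAGTCA), TEAD (GGAATG), RUNX (TGTGGTT), TFAP2 (GCCNNNGGC), GRHL (AACCGGTT), SP/KLF (GGGCGG), NFY (CCAAT), ETS (CCGGAAG), CRE (TGACGTCA) and FOX (TGTTTAC). Outside promoters, where 31.3% of all tested regions held an AP-1 motif, the share was highest in classes with a loss and no gain. It was 57.5% of 120 regions lower in both lines, 52.5% of 158 SCC25 only losses and 49.0% of 1406 SCC6 only losses. It was lower in regions gained in SCC6 only (26.0% of 4739), gained in SCC25 only (21.1% of 90) and gained in both lines (6.71% of 149). The 2 opposite classes each hold a loss and a gain, and their shares differed. It was 43.9% of 611 regions down in SCC25 and up in SCC6. With promoters included, the SCC6 gain was the larger move of that class (median 0.86 against -0.59, adjusted calls 444 against 6). In the class down in SCC6 and up in SCC25 it was 25% of 160, so the share did not follow the loss in SCC6 there. This low share did not hold in the 46 regions of that class that were opposite in all 4 scalings. With promoters included, 32.6% of these 46 held an AP-1 motif, beside 27.3% of all tested regions. Median GC content outside promoters was 45.05% over all tested regions and 43.99% to 48.1% in the 4 classes with high AP-1 shares. It was 43.4% to 48.4% in the 3 gained classes and 52.3% in the class down in SCC6 and up in SCC25.

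TEAD motifs were more frequent among the SCC6 gains. Outside promoters they were in 25.3% of all tested regions, in 57.7% of regions gained in both lines, 35.2% of SCC6 only gains and 20.7% of SCC6 only losses. In SCC25 only regions the order was turned, with 22.2% of gains and 32.3% of losses. Both opposite classes were above the level of all regions, at 33.1% (up in SCC25) and 32.7% (down in SCC25). RUNX motifs were in 17.2% of regions down in SCC25 and up in SCC6 and in 16.2% of SCC6 only gains, against 10.7% of all. Among all regions, promoters included, the GC-rich SP/KLF motif was in 50.8% of opposite regions up in SCC25 and 3.45% of those down in SCC25, against 18.1% of all, and the TFAP2 motif in 28.5%, 7.69% and 13.7%. The remaining shares in the opposite classes (up in SCC25, then down in SCC25, then all tested) were 26.1%, 33.8% and 33.6% for NFY, 7.12%, 1.26% and 3.73% for ETS, 1.69%, 0.157% and 0.611% for CRE, 0.339%, 0% and 0.156% for GRHL and 3.39%, 6.59% and 6.27% for FOX. Shares follow GC content as well as class, and a match is not a bound site.

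**Figure D4:**
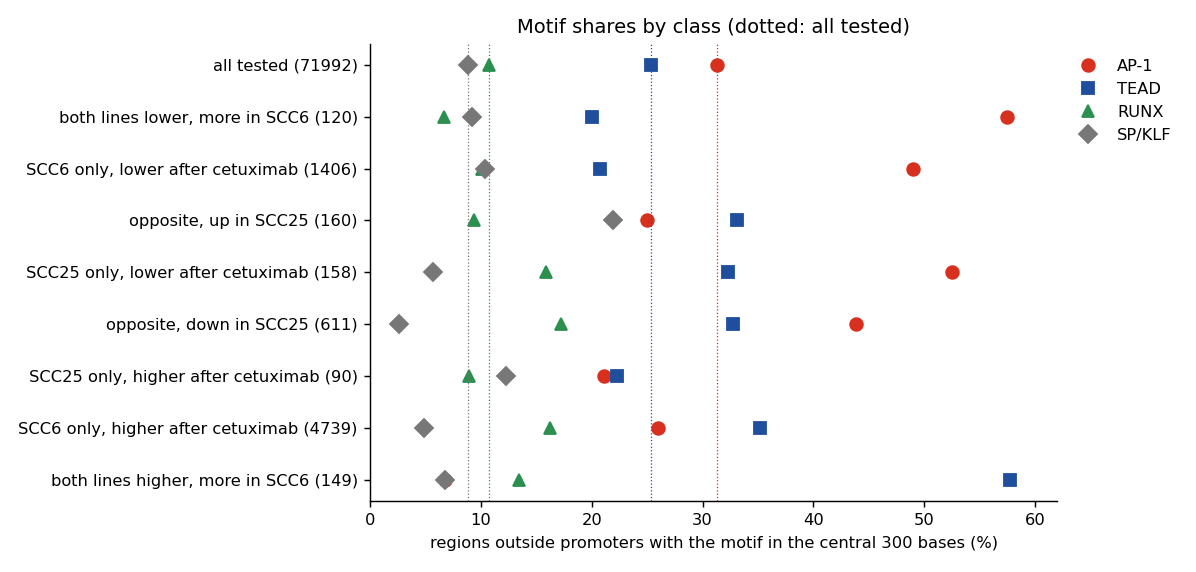
Share of regions outside promoters whose central 300 bases held an AP-1, TEAD, RUNX or SP/KLF motif, by class (number of regions in parentheses), with dotted lines at the share of all tested regions. AP-1 shares run from 6.71% in regions higher in both lines to 57.5% in regions lower in both, and TEAD shares from 20% to 57.7% in the reverse order of these 2 classes.

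At promoters the direction of the calls turned. Of 14323 tested promoter regions 450 (3.14%) had the SCC25 change above the SCC6 change and 186 (1.3%) below it, and the median difference was 0.14. The calls above comprised 240 SCC6 only losses, 135 opposite regions, 72 SCC25 only gains and 3 regions lower in both lines, and those below 146 SCC6 only gains, 26 opposite regions, 10 SCC25 only losses and 4 regions higher in both lines. With the GC trend removed they numbered 204 and 208, on reads thinned to equal depth 183 and 96, after centring 2063 and 105, and scaled to regions without a peak 57 and 1756, so neither direction held the majority in every setting.

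TRIM8, which encodes a ubiquitin ligase of cytokine signalling, had the smallest p of the promoters above. Its signal was 159, 174 and 202 in SCC6 PBS and 48.5, 74.3 and 71.1 after cetuximab, and in SCC25 it was 289, 244 and 277 and 249, 253 and 248. SCC6 fell by 1.47 (adjusted p = 7.1e-08), the SCC25 change was -0.11 (95% interval -0.41 to 0.19), and the difference was 1.36 (adjusted p = 0.000110). The loss was thus seen in the libraries of SCC6. RNF139 followed with the values above. The promoter of NLRP10, a gene of the NOD-like receptor family, went from 60.4, 71.6 and 59.8 to 5.05, 8.36 and 6.61 in SCC6, and from 75.7, 80.0 and 87.4 to 30.9, 49.5 and 63.8 in SCC25. Both lines had lower values, by 3.10 in SCC6 (adjusted p = 1.21e-08) and with a change of -0.80 in SCC25 (adjusted p = 0.206).

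Below, the promoter of STON1, which encodes an endocytic adaptor, went from 67.7, 68.9 and 67.4 to 230.3, 251 and 240.0 in SCC6 and stood at 277, 295 and 288 and 219, 299.6 and 299 in SCC25 (difference -1.89, adjusted p = 3.16e-07). A promoter region of TP73, a transcription factor gene of the p53 family, went from 6.04, 8.70 and 7.61 to 61.6, 61.3 and 52.6 in SCC6 and stood at 199, 149 and 168 and 191, 191 and 184 in SCC25 (difference -2.68, adjusted p = 9.41e-07). The promoter of IL1F10, a cytokine gene of the interleukin-1 family, went from 8.46, 10.7 and 11.96 to 71.7, 52.0 and 70.1 in SCC6 and stood at 109, 82.2 and 100.1 and 73.1, 110.1 and 70.8 in SCC25 (difference -2.74, adjusted p = 7.73e-06). At all 3 the signal in SCC6 rose, and with PBS it was higher in SCC25 than in SCC6. The IL1F10 promoter had a peak in 3 SCC25 PBS libraries and in 1 treated one. That of STON1 already had a peak in 3 SCC6 PBS libraries. The promoters of STON1, TP73, IL1F10 and TRIM8 were called in each of 24 settings.

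Gene lists were read at 1 promoter region for each gene, that of the highest mean signal. ERK feedback and output genes had 4 of 22 promoters called above and 0 below, beside 3.14% and 1.3% of all promoters, and a median change of -0.26 in SCC6 and 0.011 in SCC25, beside -0.12 and 0.027 for all promoters. These were IER2 and EGR1, immediate early genes, EPHA4, an ephrin receptor gene, and DUSP1, which encodes a phosphatase that inactivates MAP kinases and falls outside the naming rule. EGR1 had a signal of 249, 219 and 245 in SCC6 PBS and 171, 180.1 and 189 after cetuximab, against 259, 219 and 290.1 and 287, 264 and 299 in SCC25. SCC6 fell by 0.40 (adjusted p = 0.0129), the SCC25 change was 0.15 (95% interval -0.083 to 0.39), and the difference was 0.55 (adjusted p = 0.0309). The difference was 0.47 at IER2, 0.85 at EPHA4 and 0.92 at DUSP1 (adjusted p = 0.0255, 0.0221 and 0.0418). DUSP1 was the one opposite promoter of the list, with changes of -0.43 in SCC6 and 0.49 in SCC25 that missed the adjusted test in both lines (adjusted p = 0.138 and 0.298). None of the 4 was called with the GC trend removed or when scaled to regions without a peak.

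Of 14 AP-1 family promoters 2 were called above (3.14% of all promoters) and 0 below, and the median difference was 0.44 beside 0.14 for all promoters. JUND had a signal of 129, 109 and 118 in SCC25 PBS and 172, 195 and 166 after cetuximab, against 213, 225 and 179 and 144, 172 and 202 in SCC6. The SCC25 change was 0.58 (95% interval 0.30 to 0.87, adjusted p = 0.0764), and the difference was 0.84 (adjusted p = 0.00643). JUND encodes a JUN protein that is present in resting cells. BATF3 had a difference of 1.28 (adjusted p = 0.0330) with a fall of 1.14 in SCC6. JUND was called in 22 of 24 settings and BATF3 in 12 of 24. EGFR family and ligand genes had 0 of 12 promoters called, TFAP2 genes 0 of 2, interferon response genes 0 of 29 and late squamous differentiation genes 0 of 15, with median differences of 0.21, 0.22, 0.19 and 0.016 beside 0.14 for all promoters. With 636 of 14323 promoters called in either direction, counts of 0 in lists of this size are near the background. In these 4 lists the limma test gave 1, 0, 3 and 3 promoters an unadjusted p under 0.05, and on recovered reads edgeR called 0, 1, 2 and 1 and DESeq2 0, 0, 1 and 1.

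Matrix and adhesion genes had calls both ways. Of 23 integrin, laminin and matrix protease promoters 3 were called above and 2 below, beside 3.14% and 1.3% of all promoters. MMP1, the gene of interstitial collagenase, had a signal of 290.0, 286 and 234 in SCC6 PBS and 89.9, 96.6 and 76.4 after cetuximab, against 88.6, 70.7 and 71.3 and 60.5, 48.8 and 63.8 in SCC25. Both lines were lower after cetuximab, by 1.61 in SCC6 (adjusted p = 1.05e-07) and with a change of -0.41 in SCC25 (adjusted p = 0.286), a difference of 1.205 (adjusted p = 0.00129). MMP10, the stromelysin gene next to it, went the other way. Its signal was 353, 397 and 374 in SCC6 PBS and 493, 503 and 440.4 after cetuximab, against 46.7, 46.2 and 36.5 and 30.9, 24.1 and 24.8 in SCC25. The groups did not overlap in either line. The changes were 0.35 in SCC6 (adjusted p = 0.0926) and -0.68 in SCC25 (adjusted p = 0.0526), and the difference was -1.03 (95% interval -1.46 to -0.60, adjusted p = 0.00209). COL7A1, the gene of anchoring fibril collagen, had a difference of -0.92 (adjusted p = 0.0293) with a rise of 0.66 in SCC6. LAMA5 and PLAU, a laminin and the urokinase gene, both outside the naming rule, had differences of 0.60 and 0.94 (adjusted p = 0.0400 and 0.0463).

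Among 18 inflammatory cytokine promoters RELB, an NF-kappaB subunit gene, and IL1RN, the gene of the interleukin-1 receptor antagonist, were called above (3.14% of all promoters) and 0 below. RELB went from 164, 213 and 184 to 103, 97.5 and 119 in SCC6 and from 80.6, 95.9 and 77.2 to 109.7, 86.6 and 122 in SCC25 (difference 1.12, adjusted p = 0.00195), and IL1RN had a difference of 0.84 (adjusted p = 0.0359). The median difference of this list was 0.40 beside 0.14 for all promoters, and 17 of its 18 promoters had a positive difference, against 9360 of 14323 promoters in all.

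Of 18 TEAD and YAP target promoters ARHGEF17, TEAD4 and LATS2 were called above, with differences of 0.53, 0.71 and 0.88 (adjusted p = 0.0178, 0.0194 and 0.0423), beside 3.14% of all promoters. The median difference of the list was 0.10, below the 0.14 of all promoters. ARHGEF17, the gene of a guanine nucleotide exchange factor, was opposite, with a signal of 191, 195 and 201 in SCC6 PBS and 159.6, 181 and 149.8 after cetuximab, against 531, 464 and 546 and 610.2, 569 and 680.1 in SCC25. LATS2 encodes a kinase that inhibits YAP, and its SCC25 change was 0.65 (adjusted p = 0.141). Of 44 cell cycle promoters RB1, the retinoblastoma gene, and FOXM1, a mitotic transcription factor gene that shares its promoter region with RHNO1, were called above, with differences of 0.73 and 0.91 (adjusted p = 0.0176 and 0.0248), a count near the 3.14% of all promoters. Both fell in SCC6, by 0.54 and 0.57 (adjusted p = 0.00509 and 0.0249). Of 21 squamous identity promoters the basal keratin gene KRT15 and the NOTCH target HES1 were called above, with differences of 1.00 and 0.49 (adjusted p = 0.0313 and 0.0354), and of 18 EMT promoters the tight junction gene CLDN7, with 1.21 (adjusted p = 0.0336). The share of all promoters called above is again 3.14%, which for lists of this size is about 1 call or fewer. RELB and MMP10 kept the call in each of 24 settings. Of the 23 called promoters of all lists 9 were called with the GC trend removed and 6 on thinned reads. Leaving out 1 library left 10 to 19, the lowest count being reached without SCC25 PBS replicate 2, without SCC25 PBS replicate 3 and without SCC6 cetuximab replicate 2.

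**Figure D5:**
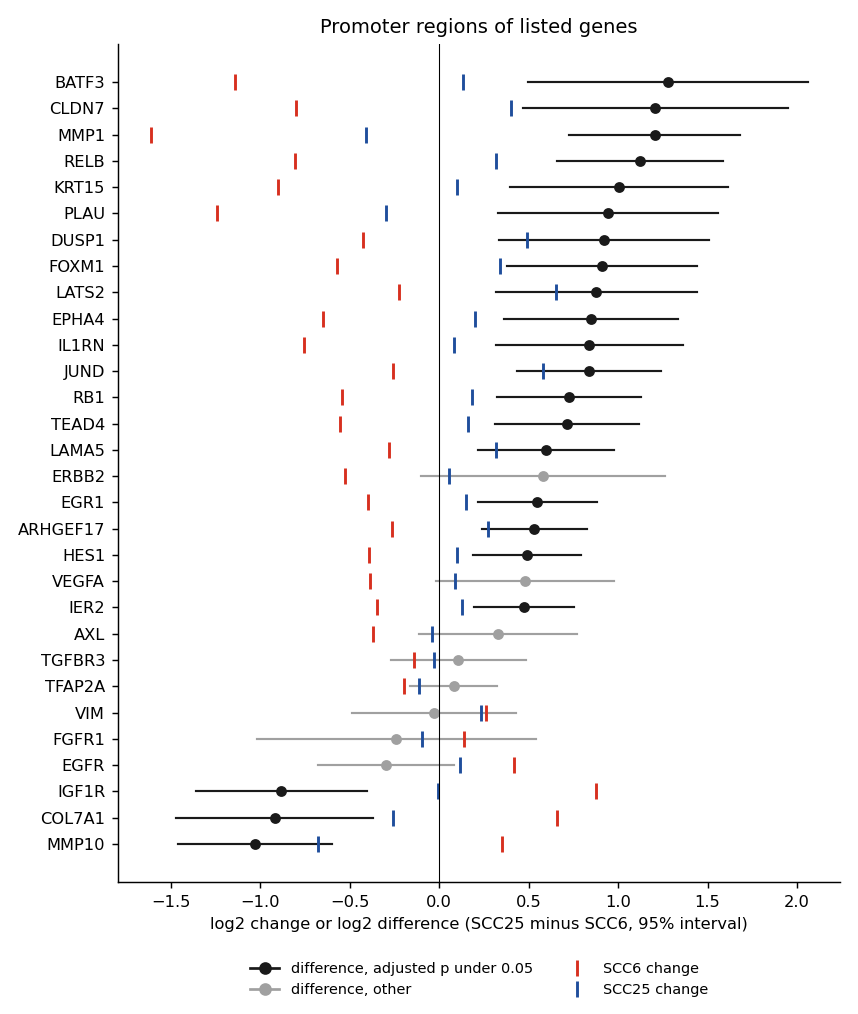
Difference between the lines (SCC25 minus SCC6, points with 95% intervals) and the change in each line (ticks) at the called promoter regions of the gene lists described here, in black, and of the other genes the study names, in grey. The interval of each called promoter lies on one side of 0, and the SCC6 change has the opposite sign to the difference at all of them.

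Of the 9 genes that the study names, only a promoter region of IGF1R, a receptor that can bypass EGFR, was called. Other start sites of a gene are not covered by the region read. The IGF1R region (chr15:99433224-99433772, GC content 45.9%) lay in an intron, at an annotated start site inside the gene. Its signal was 96.7, 79.6 and 90.3 in SCC6 PBS and 181, 145 and 167 after cetuximab, against 115, 95.9 and 113 and 136, 87.9 and 103 in SCC25. SCC6 rose by 0.88 (adjusted p = 0.000280), the SCC25 change was -0.0044 (95% interval -0.34 to 0.33), and the difference was -0.88 (95% interval -1.36 to -0.40, adjusted p = 0.0153). It was called in 21 of 24 settings, and not after centring, quantile normalization or removal of the GC trend. EGFR rose by 0.42 in SCC6 (adjusted p = 0.0218) with a SCC25 change of 0.12, and the difference was -0.30 (95% interval -0.68 to 0.08, adjusted p = 0.369). The differences of the other genes were 0.08 at TFAP2A (95% interval -0.16 to 0.32), -0.028 at VIM (95% interval -0.49 to 0.43), 0.33 at AXL (95% interval -0.11 to 0.77) and 0.58 at ERBB2 (95% interval -0.10 to 1.26). For TGFBR3, FGFR1 and VEGFA they were 0.11 (95% interval -0.27 to 0.49), -0.24 (95% interval -1.02 to 0.54) and 0.48 (95% interval -0.018 to 0.97). Adjusted p ran from 0.248 to 0.967 among these 8 genes. The signs at VIM, FGFR1, TGFBR3, AXL and TFAP2A turned under 1 or more settings, and TFAP2A and EGFR were each called in 2 of 24 settings. At the AXL region, which lay in an intron, the SCC6 change was -0.37 (95% interval -0.68 to -0.058, limma, adjusted p = 0.0843). The SCC25 change there was -0.040. The study reports a more accessible AXL promoter in treated SCC6 cells, and whether it read the same region was not tested. Of the 16 bypass receptor promoters, IGF1R was likewise the 1 called. Among the promoters read to check for other cell types, that of ITGAM was called below (difference -1.97, adjusted p = 0.0357, called in 9 of 24 settings), with a signal of 3.62, 10.0 and 1.09 in SCC6 PBS and 12.1, 10.2 and 12.9 after cetuximab against 86.7, 86.5 and 83.1 and 80.1, 59.3 and 40.7 in SCC25. Of the squamous check promoters 0 of 10 were called by limma, with 4 at an unadjusted p under 0.05, 1 called by edgeR and 0 by DESeq2, and of the fibroblast and endothelial ones 0 of 3, with 0 by each of these.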

How the data were processed

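ATAC-seq libraries of SCC6 and SCC25, each with cetuximab or PBS, were analysed. Per the submitters' processing notes reads were trimmed with Trim Galore 0.5.0, aligned to hg19 with Bowtie2 2.3.2 and handled with Picard 2.18 and SAMtools 1.9, and the authors called peaks with MACS2. The versions of MACS2 and DiffBind are not given in the sources used here. The authors deposited a table of scaled signal for each library over a consensus set of regions, in which a library's values are read counts times 1 factor with no value under 1 read, so 0 and 1 reads cannot be told apart. The deposited peak lists also hold the fold enrichment ratio and the -log10 p and q values of MACS2, which were not used beyond the position of the peaks. Dividing by the steps of 0.331 to 1.77 gave whole reads for 100% of values (tolerance 0.001).

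Groups came from the labels. The lowest 25% of regions by mean signal were left out and limma 3.58.1 (R 4.3.3) was fitted to log2(signal + 1) with 4 groups and moderated variances. The added 1 lowers fold changes of low regions, but at 1 read the change follows the steps. These were 1.01, 0.928 and 0.331 in SCC6 with cetuximab and 1.21, 0.669 and 1.09 with PBS. In SCC25 they were 1.41, 0.651 and 1.77 with cetuximab and 0.377, 0.721 and 0.848 with PBS. A region at 1 read in every library thus has a negative SCC6 change, a positive SCC25 change and a positive difference. The methods differ from a count test because the deposited values are scaled signal. The contrast was the interaction, p-values were adjusted by Benjamini-Hochberg over all 86315 regions, and the fit was tested on simulated data. Depth (2513828 to 15017130 reads) limits the precision, most in SCC25 with cetuximab. Promoters lay within 1 kb of 78714 start sites of 19807 genes (GENCODE 44 mapped to GRCh37), and overlaps used bedtools 2.31.1. Named regions had the smallest interaction p in each direction: 5 opposite regions and 3 SCC6 only and 3 SCC25 only regions among those whose libraries did not overlap, 3 promoters, up to 3 called promoters of each gene list, the 9 genes the study names, and genes with 3 or more opposite regions. DUSP1, LAMA5 and PLAU were named after their values were seen. The gene lists and members were chosen with earlier results of these data known. Alternatives were edgeR 4.0.16 and DESeq2 1.42.0 on recovered reads, other scalings, filters and pseudocounts, thinning to 2513828 reads, removal of the trend on GC content, SCC1 in the fit, a replicate block and leaving out each library. Tables were made in Python 3.11.15 (pandas 2.3.3, numpy 2.4.6 and scipy 1.17.1), and plots with matplotlib 3.10.9. A few named items are not reported here.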

Additional observations from a re-analysis of the deposited data

Results flagged for a closer look

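The effect of cetuximab differed between SCC25 and SCC6 by the interaction test at 2226 regions with the SCC25 change above the SCC6 change and at 5843 regions with it below (limma, adjusted p under 0.05). Both counts move with the scaling of the libraries, as given under the processing.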

How the results depend on the processing

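Counts in this paragraph are regions, and the causes of the shifts were not tested. Centring each library on its median gave 6160 calls above, 1102 opposite regions up and 263 down in SCC25, 546 SCC25 only regions and 2063 promoters above and 105 below. Quantile normalization gave 4048 above, 618 opposite up and 375 down, and 858 promoters above. Removal of the GC trend gave 355 opposite down and 204 promoters above. With edgeR there were 5123 above, 656 opposite up, 612 SCC25 only and 1258 promoters above. Thinning to equal depth, which leaves fewer reads, gave 1091 above, 3387 below, 382 opposite down, 3647 SCC6 only, 143 SCC25 only and 183 promoters above and 96 below. With SCC1 in the fit there were 1116 above, 168 opposite up, 356 opposite down, 114 SCC25 only and 192 promoters above and 117 below. Scaled to regions without a peak, a setting chosen after seeing the data, there were 900 above, 15038 below, 58 opposite up, 2423 opposite down, 11996 SCC6 only, 1090 SCC25 only and 57 promoters above and 1756 below. The calls above made up 27.6% with the deposited scaling, 33.3% with DESeq2, 37.8% without the GC trend and 44.5% with edgeR, which moved the median difference to 0.12, and thinning moved it to -0.11.

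Leaving out 1 library gave 1334 to 2278 calls above, 4076 to 5854 below, 176 to 374 opposite regions up and 335 to 994 down in SCC25, 4783 to 6150 SCC6 only, 158 to 618 SCC25 only, and 207 to 484 promoters above and 112 to 218 below. Counts moved by over 1.5 times without SCC25 PBS replicate 1 (335 opposite down, 112 promoters below), replicate 2 (1334 above, 176 opposite up, 418 opposite down, 173 SCC25 only, 207 promoters above) or replicate 3 (1368 above, 189 opposite up, 164 SCC25 only, 267 promoters above), and without SCC25 cetuximab replicate 2 (994 opposite down, 618 SCC25 only). They also did so without SCC6 cetuximab replicate 1 (158 SCC25 only, 258 promoters above), replicate 2 (182 and 292) or replicate 3 (173 SCC25 only), and without SCC6 PBS replicate 1 (217 SCC25 only) or replicate 3 (276 promoters above). With the replicate number as a replicate block there were 2001 calls above and 5616 below, 268 and 605 opposite regions, 6200 SCC6 only, 275 SCC25 only and 370 and 169 promoters. Deviations of same-numbered libraries correlated at -0.040 to 0.035, and those of other pairs within a line at -0.062 to 0.088. No pairing by number was seen, but with 3 libraries in each group this check cannot exclude it.

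Over 57 named results and 24 settings 1188 of 1367 comparisons kept sign and side of the threshold, 161 lost the call, 3 gained it and 15 changed sign, all at promoters not called in the reported fit. The difference at VIM became 0.23 after centring, 0.093 after quantile normalization, 0.074 with edgeR, 0.00034 with DESeq2, 0.00083 without SCC6 PBS replicate 2, 0.11 without SCC6 PBS replicate 3, 0.046 without SCC25 cetuximab replicate 2 and 0.016 without SCC25 PBS replicate 2. Over all fits without 1 library it was -0.19 to 0.11 at VIM, -0.56 to 0.13 at FGFR1 and -0.0059 to 0.20 at TGFBR3. At FGFR1 it became 0.017 after centring and 0.13 without SCC6 PBS replicate 1. At TGFBR3 it became -0.14 without the GC trend, -0.31 scaled to regions without a peak and -0.0059 without SCC25 PBS replicate 2. Scaled to regions without a peak it was -0.086 at AXL and -0.34 at TFAP2A, the latter past the threshold in that direction (limma, adjusted p = 0.0364). Depth limits regions with under 10 reads in a line, which were 676 of the 8069 calls.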
